A study of Mus musculus with 7 samples.

Results

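The genes described here are the cytosolic heat shock chaperones and their cochaperones in brown fat from between the shoulder blades, the tissue that burns fuel to make heat. They were chosen by name and comprise 47 of the 53715 gene rows of the count table. All 47 were among the 15123 genes with enough counts to be tested. They fall into 17 stress-inducible members, 19 constitutive members, 3 genes for heat shock factors and their binding protein, and the 8 subunits of the chaperonin CCT. Tissue came from PGAM5 KO mice, which lack the mitochondrial phosphatase PGAM5, and from WT mice. Both groups were male C57BL/6J mice aged 10 weeks. How the knockout allele was made, and in which cells it is deleted, is not given in the sources used here. The labels list 4 KO and 3 WT samples from separate individuals, and 3 KO and 3 WT libraries had a column in the table. The fourth KO sample was not analysed here.

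Molecular chaperones bind unfolded stretches of other proteins and help them fold, refold or be degraded. HSP70 proteins do so in cycles of ATP binding and hydrolysis, in which J-domain proteins (the Dnaj genes) deliver substrates and stimulate hydrolysis, and nucleotide exchange factors (HSP110 proteins, Bag proteins) release them. HSP90 proteins act later on clients such as kinases and steroid receptors, small heat shock proteins hold denatured proteins without using ATP, and the ring-shaped chaperonin CCT folds actin and tubulin. On heat or other protein damage, heat shock factor 1 (Hsf1) binds heat shock elements in promoters, which are alternating GAA and TTC units, and raises transcription of the inducible members, while the constitutive members are made in unstressed cells too.

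Promoters are shown because heat shock elements are the sequences through which the inducible genes are switched on. RefSeq promoters (assembly GRCm38.p6, 250 bases before to 50 bases after the start site) matched 39 of the 47 members. Hsp90aa1, Cryab, Hspa8, Hsp90ab1, Hspa13, St13, Hsf1 and Cct4 had no entry. Each line gives the 250 bases before and the first 30 bases after the start site, 5′ to 3′ on the gene's strand, in lower case. Capitals mark every 2-unit element, GAANNTTC or TTCNNGAA, and overlapping elements run together.
Hspa1a, chr17:34972127-34972406, minus strand: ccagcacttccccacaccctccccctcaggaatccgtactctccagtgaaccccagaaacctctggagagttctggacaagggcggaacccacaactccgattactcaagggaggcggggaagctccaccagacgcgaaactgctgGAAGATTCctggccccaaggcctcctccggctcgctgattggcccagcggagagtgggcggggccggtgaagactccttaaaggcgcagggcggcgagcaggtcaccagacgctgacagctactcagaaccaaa
Hspa1b, chr17:34959209-34959488, minus strand: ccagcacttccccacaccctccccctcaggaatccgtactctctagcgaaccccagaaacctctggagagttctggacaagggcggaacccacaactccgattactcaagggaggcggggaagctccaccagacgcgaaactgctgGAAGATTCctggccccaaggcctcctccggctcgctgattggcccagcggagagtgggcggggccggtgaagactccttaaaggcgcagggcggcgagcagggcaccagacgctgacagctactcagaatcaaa
Hsph1, chr5:149636286-149636565, minus strand: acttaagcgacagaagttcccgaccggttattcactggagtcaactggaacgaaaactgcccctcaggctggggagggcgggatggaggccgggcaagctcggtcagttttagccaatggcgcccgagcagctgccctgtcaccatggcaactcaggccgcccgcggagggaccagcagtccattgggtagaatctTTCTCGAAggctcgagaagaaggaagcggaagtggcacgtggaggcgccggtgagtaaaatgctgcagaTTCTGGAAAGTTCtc
Hspb1, chr5:135887669-135887948, plus strand: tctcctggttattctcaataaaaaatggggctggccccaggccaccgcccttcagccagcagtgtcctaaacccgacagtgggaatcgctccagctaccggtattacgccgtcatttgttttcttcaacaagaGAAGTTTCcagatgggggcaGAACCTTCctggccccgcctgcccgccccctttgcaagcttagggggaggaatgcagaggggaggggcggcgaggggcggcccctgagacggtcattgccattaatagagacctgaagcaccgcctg
Chordc1, chr9:18292017-18292296, plus strand: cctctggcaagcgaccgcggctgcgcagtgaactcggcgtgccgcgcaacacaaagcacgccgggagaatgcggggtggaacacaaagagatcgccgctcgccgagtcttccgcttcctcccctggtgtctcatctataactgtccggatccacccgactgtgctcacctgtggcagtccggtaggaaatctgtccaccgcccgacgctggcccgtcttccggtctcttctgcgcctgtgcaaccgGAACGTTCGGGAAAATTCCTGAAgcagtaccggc
Cct7, chr6:85451255-85451534, plus strand: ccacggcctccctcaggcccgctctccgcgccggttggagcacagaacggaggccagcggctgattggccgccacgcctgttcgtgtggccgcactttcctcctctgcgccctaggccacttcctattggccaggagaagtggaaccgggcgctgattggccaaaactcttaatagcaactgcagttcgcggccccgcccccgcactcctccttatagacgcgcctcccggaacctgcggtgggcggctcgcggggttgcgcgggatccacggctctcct
Hspa1a and Hspa1b, the inducible HSP70 genes, are neighbours on chromosome 17, and their 300-base promoters matched at 296 positions. Each held 1 element that began 104 bases before the start site. Hspb1 held 2 elements, which began 117 and 97 bases before it. In Hsph1, of whose 2 listed start sites the one at lower coordinates is printed, and in Chordc1 the elements overlapped to form the 3-unit element GAANNTTCNNGAA. Cct7, a chaperonin subunit, held none in this window and is printed without capitals.

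Searched on both strands of the whole 300-base windows, the 2-unit element occurred in 11 of the 15 stress-inducible members with a promoter, in 3 of 15 constitutive members, in 0 of 2 factor genes and in 3 of 7 CCT subunits. Of all 27025 genes in the promoter table, 17% held it. The 3-unit element, which contains the 2-unit element, occurred in 2 stress-inducible members (Hsph1 and Chordc1) and 1 constitutive member (Dnajb6), against 0.662% of all genes. The sequence CCAAT occurred in 7 of 15 stress-inducible members, 5 of 15 constitutive members, 1 of 2 factor genes and 4 of 7 CCT subunits, against 41.1% of all genes. The sequence TATAAA occurred in 1 member of each of the stress-inducible and constitutive classes and in no factor gene or CCT subunit, against 15.7% of all genes. These are matches of letters and not measured binding.

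RNA was measured as read counts per gene, and levels are given in CPM, each library's counts scaled to a common total with TMM factors. Total counts were 18952348 to 21826942 in the KO libraries and 18034204 to 33617762 in the WT libraries. The limit that a count of 0 allows, taken as 3 counts, lay between 0.0883 and 0.200 CPM and covers counting error only. Pgam5 had 1, 3 and 11 counts in the KO libraries, against 167, 122 and 186 counts in the WT libraries, and its log2 fold change was -4.84 (SE 0.59), with an edgeR adjusted p of 0.0243. All 14 brown adipocyte markers passed the count filter. Their summed level was 19070.2, 16616 and 16905 CPM in KO and 14449, 18055 and 15953 CPM in WT. Of that sum, Fabp4 alone gave 8764, 7728 and 5714 CPM in KO and 7474, 10568 and 7945 CPM in WT. The log2 fold changes of the 14 ran from -0.44 to 2.99, with 9 negative and 5 positive, so the sum does not stand for each marker. Libraries KO 3 and WT 2 stood apart on the first principal component of all genes, which carried 45.6% of the variance. The mitochondrial genome took 34.1%, 28.2% and 19.7% of counts in the KO libraries and 32.5%, 43.0% and 30.3% in the WT libraries.

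Across the 47 chaperone genes, 40 (85.1%) had a negative log2 fold change of KO over WT, against 50.2% of all genes tested. The median was -0.49 over the members and -0.0019 over all genes. The edgeR quasi-likelihood test with Benjamini-Hochberg adjustment over all genes called 0 members, against 0.0397% of all genes called lower and 0.0198% called higher. At an unadjusted p under 0.05, 24 members were lower and 1, Hspb6, was higher, beside 5.49% of all genes lower and 6.3% higher. DESeq2 gave an adjusted p for 44 of the 47 members, all but Hspa1a, Hspa1b and Hsph1. It called 3 members lower, Cryab, Hsp90ab1 and Hspa12a, against 0.551% of all genes called lower and 0.571% higher. limma-voom called 0, against 0.0331% of all genes lower and 0.0132% higher. In 22 members every KO library lay below every WT library, and in Hspb6 and Hspbp1 every KO library lay above, against 9.39% and 10.1% of all genes. In bulk tissue, fewer cells of a type and less RNA per cell cannot be told apart.

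Library WT 3 stood apart in these genes and sets the size of many of the differences that follow. It had the highest level of the 6 libraries in 25 of the 47 members, against 12.6% of all genes. With WT 3 left out, 38 members had a negative log2 fold change, against 49.6% of all genes. Without it, 13 were lower and 0 higher by unadjusted p at the same limit, compared with 5.77% of all genes lower and 6.22% higher. The edgeR test then called 0 members, against 0.0383% of all genes lower and 0.00639% higher, and DESeq2 called Cryab and Hspa12a lower, against 0.437% lower and 0.456% higher. The median over the members was then -0.33, and 24 members lay with every KO library below both other WT libraries and 2 with every KO library above them, against 15.6% and 16.4% of all genes.

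**Figure D1:**
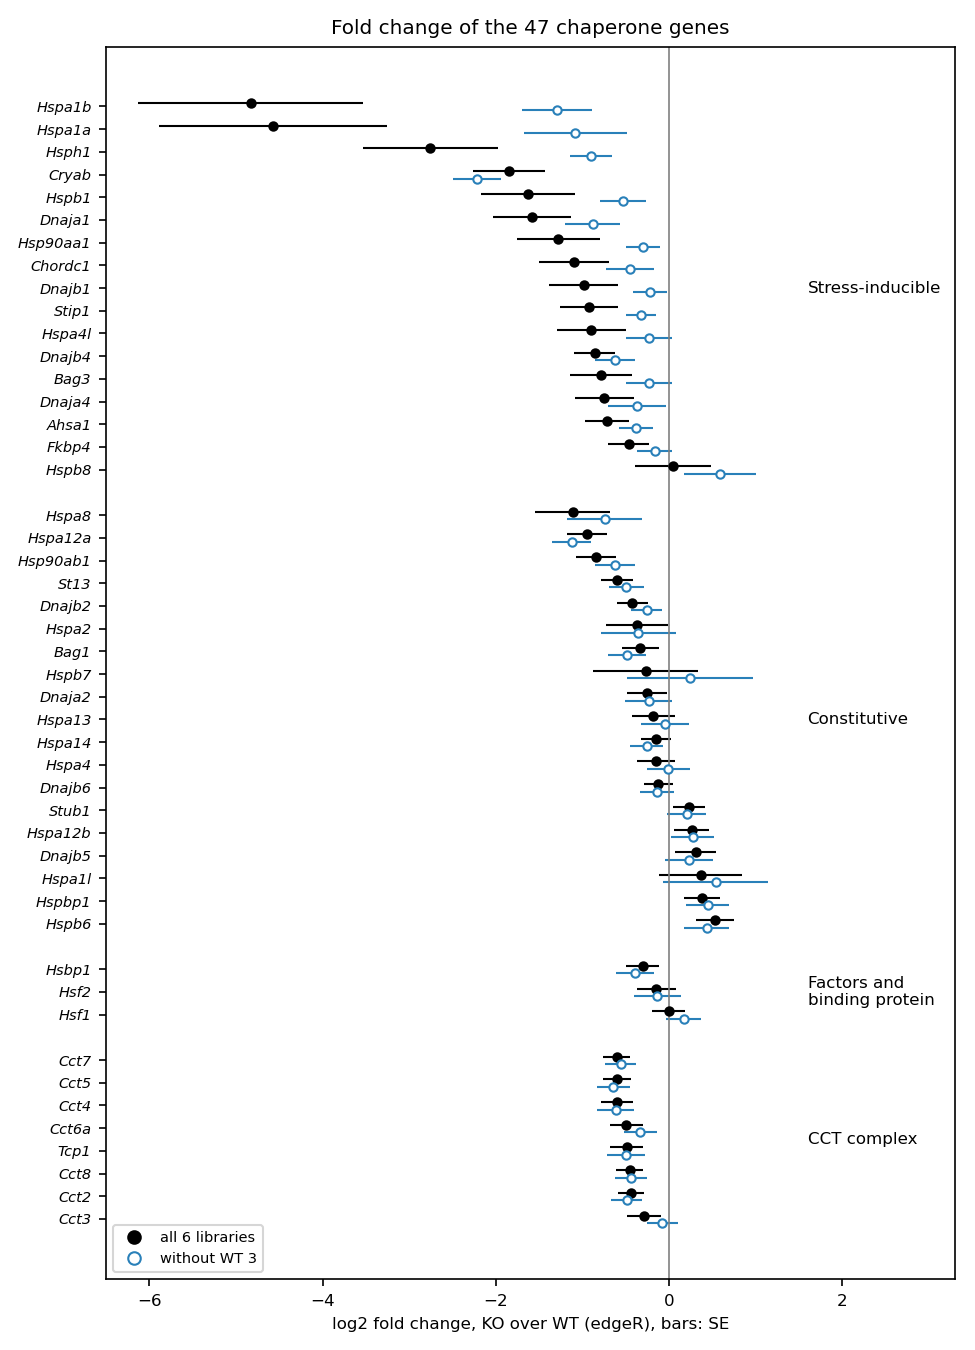
Fitted log2 fold change of KO over WT for each of the 47 members (x axis), grouped by class, with all 6 libraries (filled) and without WT 3 (open), and bars of 1 SE. The median of the stress-inducible members is -0.98 with all libraries and -0.38 without WT 3. Cryab (-1.85 to -2.22) and Hspb8 (0.045 to 0.59) instead move away from 0. The CCT subunits stay at a median of -0.49 on both fits.

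Among the stress-inducible members, 16 of 17 had a negative log2 fold change. At an unadjusted p under 0.05, 12 were lower, against 5.49% of all genes. The class median was -0.98 with all libraries and -0.38 without WT 3, when 16 were negative. At the same limit, 5 (Hspa1b, Hsph1, Cryab, Dnaja1 and Dnajb4) were then lower, against 5.77% of all genes. The groups did not overlap in 10 members, all with KO below WT, against 9.39% of all genes. Without WT 3 it was again 10, against 15.6% of all genes. Summed over the class, the level was 586, 609 and 619 CPM in the KO libraries, against 785, 909.7 and 2582 CPM in the WT libraries. With both KO 3 and WT 2 left out, the class median was -1.17. WT 3 was the highest library in 15 of the 17, with Cryab and Hspb8 the exceptions.

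The inducible HSP70 genes had the most negative log2 fold changes of the 47. Hspa1a, at chr17:34969190-34972156 on the minus strand (GENCODE M21, mm10), had 0.455, 1.12 and 0.440 CPM in the KO libraries, against 1.21, 1.67 and 45.3 CPM in the WT libraries. Hspa1b, at chr17:34956436-34959238 on the same strand, had 1.32, 2.02 and 1.07 CPM in the KO libraries, against 3.84, 3.40 and 118 CPM in the WT libraries. In WT 3 they stood 31.4 and 32.7 times the mean of the other WT libraries, while KO 1, KO 2, KO 3, WT 1 and WT 2 were all low. Their log2 fold changes were -4.57 (SE 1.31) for Hspa1a and -4.83 (SE 1.30) for Hspa1b, with edgeR adjusted p of 0.332 and 0.320. Without WT 3 they were -1.08 and -1.30, and every KO library still lay below WT 1 and WT 2. DESeq2 gave neither p nor adjusted p for these genes or for Hsph1 with all libraries, and gave both without WT 3. The transcripts are near copies: 58.8% of the 50-base words of Hspa1a occur in Hspa1b and 62.3% of those of Hspa1b occur in Hspa1a, so how reads were divided between them is uncertain. Hspa1b over Hspa1a, per kilobase, was 3.07, 1.91 and 2.59 in KO and 3.35, 2.16 and 2.77 in WT, with no separation of the groups and no shift in WT 3.

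Hsph1 (chr5:149614287-149636376) encodes an HSP110 protein that exchanges nucleotide on HSP70, and it shares no 50-base word with another gene. It had 23.6, 20.4 and 14.8 CPM in the KO libraries, against 31.6, 41.6 and 323 CPM in the WT libraries, a log2 fold change of -2.76 (SE 0.78) with an edgeR adjusted p of 0.329, and -0.90 without WT 3. All 3 KO libraries lay below all 3 WT libraries, and WT 3 stood 8.85 times the mean of the other WT libraries. Hspa4l, a second HSP110 gene of the class, overlapped between the groups, with a log2 fold change of -0.89 (SE 0.40), and -0.23 without WT 3.

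Hsp90aa1 (chr12:110690605-110702728), the inducible cytosolic HSP90 gene, had 97.01, 115 and 117 CPM in the KO libraries, against 144, 125 and 528 CPM in the WT libraries. The groups did not overlap, and WT 3 alone lay far above the rest. The fitted log2 fold change was -1.28 (SE 0.48), with an edgeR adjusted p of 0.388, and -0.30 without WT 3. Of its 50-base words, 58.5% occur in other genes, most in the predicted gene Gm12346.

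HSP90 cochaperones of the class gave values of the same sign. Stip1, which links HSP70 to HSP90, had 38.98, 37.04 and 39.5 CPM in the KO libraries, against 48.8, 47.6 and 122 CPM in the WT libraries, and Ahsa1, which stimulates the HSP90 ATPase, had 32.1, 32.5 and 41.6 CPM in the KO libraries, against 42.4, 49.8 and 81.99 CPM in the WT libraries. Neither gene overlapped between the groups. The log2 fold changes were -0.92 (SE 0.33) and -0.72 (SE 0.25), with edgeR adjusted p of 0.375 and 0.374, and -0.33 and -0.38 without WT 3. Chordc1, an HSP90-binding protein whose promoter is printed above, had 46.4, 46.9 and 24.7 CPM in the KO libraries, against 49.9, 57.6 and 144 CPM in the WT libraries, with no overlap and a log2 fold change of -1.09 (SE 0.40), or -0.45 without WT 3. The immunophilin gene Fkbp4 overlapped between the groups at -0.47 (SE 0.24), or -0.16 without WT 3.

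Among the J-domain genes, Dnaja1 had 78.7, 84.7 and 51.6 CPM in the KO libraries, against 88.2, 175 and 381 CPM in the WT libraries. Dnajb4 had 41.3, 39.96 and 29.6 CPM in the KO libraries, against 46.3, 67.8 and 87.3 CPM in the WT libraries. In both genes every KO library lay below every WT library, also without WT 3. Their log2 fold changes were -1.58 (SE 0.45) for Dnaja1 and -0.86 (SE 0.24) for Dnajb4, with edgeR adjusted p of 0.330 and 0.329. Without WT 3 they were -0.88 and -0.62. Dnajb1, the main J-domain partner of inducible HSP70, had 24.7, 22.2 and 23.1 CPM in the KO libraries, against 24.1, 30.4 and 83.5 CPM in the WT libraries. Here the KO libraries lay within 22.2 to 24.7 CPM, WT 1 was at the same level, and WT 3 stood 3.07 times the mean of the other WT libraries. Its log2 fold change was -0.98 (SE 0.40) and, without WT 3, -0.22. Of the 50-base words of Dnaja1, 28.8% occur in other genes. Dnaja4 overlapped as well, at -0.75 (SE 0.34) and, without WT 3, -0.37, and 51.9% of its 50-base words lie in Wdr61, which overlaps it on the opposite strand.

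Bag3, a nucleotide exchange factor that works with small heat shock proteins in autophagy of damaged proteins, had 28.2, 39.3 and 41.9 CPM in the KO libraries, against 32.6, 53.2 and 102 CPM in the WT libraries. The groups overlapped, since WT 1 was below KO 2 and KO 3. For Bag3 the log2 fold change was -0.78 (SE 0.36), with an edgeR adjusted p of 0.426, and -0.23 without WT 3.

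The small heat shock proteins of the class did not share 1 pattern. Hspb1 had 29.7, 32.8 and 46.4 CPM in the KO libraries, against 64.8, 40.2 and 230.1 CPM in the WT libraries. WT 3 was again the highest, WT 2 lay within the KO range, and the log2 fold change was -1.62 (SE 0.54), with -0.53 without WT 3. A processed copy, Hsp25-ps1, holds 58.9% of its 50-base words. Hspb8, the partner of Bag3, had 15.3, 17.6 and 38.7 CPM in the KO libraries, against 19.5, 12.1 and 37.3 CPM in the WT libraries, and its log2 fold change was 0.045 (SE 0.44), or 0.59 without WT 3. Its 2 highest libraries, KO 3 and WT 3, are in different groups.

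Cryab (chr9:50751325-50756636), the small heat shock protein alpha-B-crystallin, had 13.8, 13.05 and 11.9 CPM in the KO libraries, against 40.2, 79.98 and 19.8 CPM in the WT libraries. It was the exception to the WT 3 pattern: WT 3 was the lowest WT library, the KO libraries lay close together, and the groups did not overlap. Its level averaged 12.9 ± 0.983 CPM in KO and 46.7 ± 30.6 CPM in WT (SD, n = 3 each). The log2 fold change was -1.85 (SE 0.41), with an edgeR adjusted p of 0.305, and -2.22 with an edgeR adjusted p of 0.0514 without WT 3. DESeq2 called it lower with an adjusted p of 0.000426. Over all settings tried, the adjusted p ranged from 6.86e-14 to 0.644. The lowest came from the edgeR fit with no filter on low counts, which called 663 genes, against 9 with the filter. Without WT 2, which had the highest level, the edgeR log2 fold change was -1.22. Cryab is also abundant in muscle. Of the skeletal muscle markers, Mb (myoglobin) had 0.955, 1.97 and 1.32 CPM in the KO libraries, against 0.283, 6.80 and 1.71 CPM in the WT libraries and was, like Cryab, highest in WT 2. Acta1 was highest in WT 3, with 0.455, 8.45 and 0.782 CPM in the KO libraries, against 2.67, 1.87 and 10.8 CPM in the WT libraries. Of the 12 muscle markers tested, WT 2 was the highest library in 1, Mb, and WT 3 was the highest in 8. The part of muscle RNA in the Cryab values was not tested. Hspb2, the neighbour of Cryab on the opposite strand, shares 19% of the 50-base words of Cryab and had 40 counts over the 6 libraries, against 3718 for Cryab.

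**Figure D2:**
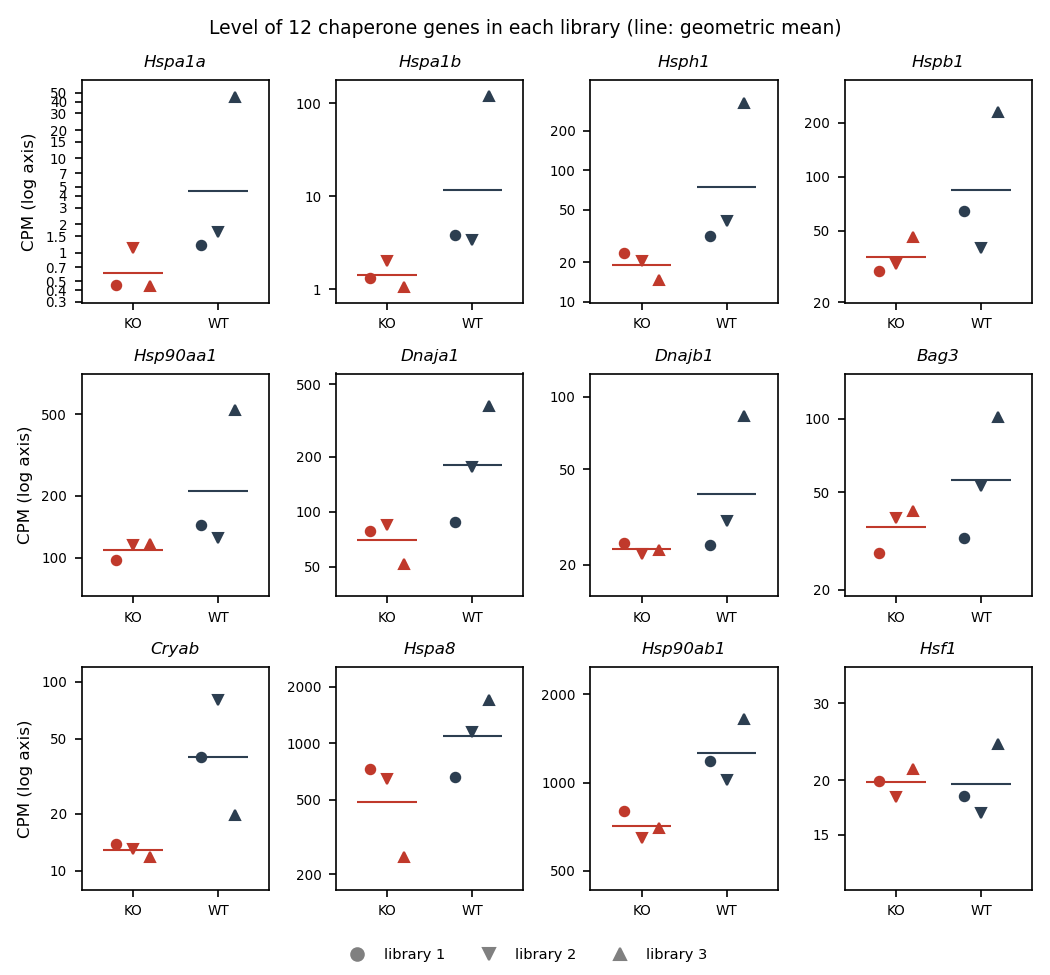
CPM (log axis, 1 scale a panel) of 12 members in each KO library (left) and WT library (right), with marker shape giving the library number and a line at the geometric mean. WT 3 is the top point for the inducible HSP70, HSP110 and HSP90 genes, whereas for Cryab it is the lowest WT point, at 19.8 CPM.

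The constitutive members gave smaller values in both directions. Of 19, 13 had a negative log2 fold change and 6 a positive one, with a median of -0.18 and, without WT 3, -0.14. At an unadjusted p under 0.05, 5 were lower (Hspa8, Hsp90ab1, Hspa12a, Dnajb2 and St13) and 1, Hspb6, was higher. Over all genes tested, 5.49% were lower and 6.3% higher at that limit. Every KO library lay below every WT library in 5 of the 19 members and above in 2, against 9.39% and 10.1% of all genes. The counts of members that were higher were thus near the shares over all genes. The class median was -0.30 without WT 1, -0.092 without WT 2, -0.31 without KO 2 and -0.073 without both KO 3 and WT 2. Summed levels were 2317, 2102 and 1693 CPM in KO, against 2694, 3224 and 4305 CPM in WT. Most of each sum was Hspa8 and Hsp90ab1, so the sums do not stand for each member.

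Hspa8 and Hsp90ab1, the constitutive HSP70 and HSP90, are the most abundant of the 47 per length. Hsp90ab1 averaged 397 and Hspa8 357 CPM per kilobase over the 6 libraries, against 209.6 for Bag1, 97.2 for Hsbp1 and 81.9 for Hspb1, the next in order. Hsp90ab1 (chr17:45567775-45573271) had 803, 646 and 701 CPM in the KO libraries, against 1183, 1024 and 1653 CPM in the WT libraries, with no overlap and means of 717 ± 79.5 CPM in KO and 1287 ± 327 CPM in WT (SD, n = 3 each). Its log2 fold change was -0.84 (SE 0.23), with an edgeR adjusted p of 0.322, and -0.62 without WT 3. DESeq2 called it lower with an adjusted p of 0.0254, which became 0.162 without WT 3. Over all settings its adjusted p ranged from 0.0254 to 0.652.

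Hspa8 (chr9:40800984-40810087) had 729, 645 and 247 CPM in the KO libraries, against 663, 1143 and 1700.0 CPM in the WT libraries. The groups overlapped because KO 1 was above WT 1, KO 3 was far below all others, and WT 3 was the highest. The log2 fold change of Hspa8 was -1.11 (SE 0.43), with an edgeR adjusted p of 0.396, and -0.74 without WT 3. How its reads were assigned is uncertain, since 74.8% of its 50-base words occur in other genes, most in Gm15459.

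Hspa12a (chr19:58795750-58943654), a distant relative of HSP70, had 26.6, 18.97 and 18.2 CPM in the KO libraries, against 42.5, 50.2 and 30.5 CPM in the WT libraries. Like Cryab it had no overlap between the groups and its lowest WT value in WT 3. Its log2 fold change was -0.95 (SE 0.23), with an edgeR adjusted p of 0.306, and -1.13 without WT 3. DESeq2 called it with all libraries (adjusted p 0.0306) and without WT 3 (adjusted p 0.00812). Over all settings its adjusted p ranged from 0.00112 to 0.644, the lowest again from the edgeR fit with no filter on low counts. Hspa12b, its closest relative and a gene known from endothelium, overlapped between the groups at 0.26 (SE 0.21). The 8 endothelial markers, all tested, summed to 518, 770.3 and 950.5 CPM in KO and 556, 418 and 719 CPM in WT, and their part in the Hspa12b value was not tested.

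Among the constitutive cochaperones, St13, which binds HSP70 in its ADP state, had 139.6, 148 and 114 CPM in the KO libraries, against 195, 181 and 232 CPM in the WT libraries. Dnajb2, a J-domain protein that passes clients to the proteasome, had 31.1, 31.2 and 36.5 CPM in the KO libraries, against 38.4, 40.2 and 53.9 CPM in the WT libraries. Both had every KO library below every WT library, with log2 fold changes of -0.60 (SE 0.18) for St13 and -0.42 (SE 0.18) for Dnajb2 and edgeR adjusted p of 0.350 and 0.419. Without WT 3 the values were -0.49 and -0.26. The nucleotide exchange factor gene Bag1 overlapped at -0.33 (SE 0.21), and Stub1, a ubiquitin ligase that binds HSP70 and HSP90, overlapped at 0.23 (SE 0.18).

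In the opposite direction, Hspb6, a small heat shock protein best known from muscle, had 11.96, 11.2 and 16.7 CPM in the KO libraries, against 10.4, 9.21 and 7.98 CPM in the WT libraries. Hspbp1, which releases nucleotide from HSP70, had 14.5, 14.7 and 17.1 CPM in the KO libraries, against 9.21, 13.5 and 12.9 CPM in the WT libraries. Every KO library was above every WT library in both, as in 10.1% of all genes. Neither difference passed the edgeR test, with log2 fold changes of 0.53 (SE 0.22) for Hspb6 and 0.38 (SE 0.20) for Hspbp1 and adjusted p of 0.417 and 0.469.

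Other constitutive members were close to 0 or scarce, and their values without WT 3 were -0.0057 for Hspa4, -0.26 for Hspa14, -0.046 for Hspa13 and 0.24 for Hspb7. Hspa4, an HSP110 gene, was at -0.15 (SE 0.22) on the log2 scale, the ribosome-associated Hspa14 at -0.15 (SE 0.17), Hspa13 at -0.18 (SE 0.25), and the J-domain genes Dnaja2 at -0.26 (SE 0.23), Dnajb6 at -0.13 (SE 0.17) and Dnajb5 at 0.31 (SE 0.24). Hspa1l and Hspa2, HSP70 genes best known from testis, and Hspb7, known from heart, averaged 0.845, 1.51 and 0.573 CPM. Of these 3, Hspa2 had every KO library below every WT library, at a log2 fold change of -0.37 (SE 0.35) with an edgeR adjusted p of 0.658. Shared 50-base words made up 71.4% of Hspa1l, 41.9% of Dnajb6, 33% of Stub1 and 15.6% of Hspa14.

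Ratios of an inducible gene to a constitutive relative within a library do not depend on library scaling. Hspa1a and Hspa1b together over Hspa8, per kilobase, were 0.00205, 0.00407 and 0.00515 in KO, against 0.00642, 0.00372 and 0.0809 in WT. Hsp90aa1 over Hsp90ab1 was 0.0928, 0.137 and 0.128 in KO, against 0.0936, 0.0937 and 0.245 in WT. In both, WT 3 stood above every other library, and WT 2 lay within the KO range. Hsph1 over Hspa4 was 0.299, 0.207 and 0.161 in KO, against 0.458, 0.373 and 2.73 in WT. Dnaja1 over Dnaja2 was 0.427, 0.453 and 0.411 in KO, against 0.594, 0.727 and 1.86 in WT. For this second set of pairs all 3 KO values lay below all 3 WT values, with or without WT 3, and an exact permutation test of 3 against 3 cannot go below p = 0.1. Bag3 over Bag1 overlapped, at 0.0558, 0.0845 and 0.0914 in KO and 0.0590, 0.0687 and 0.218 in WT.

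**Figure D3:**
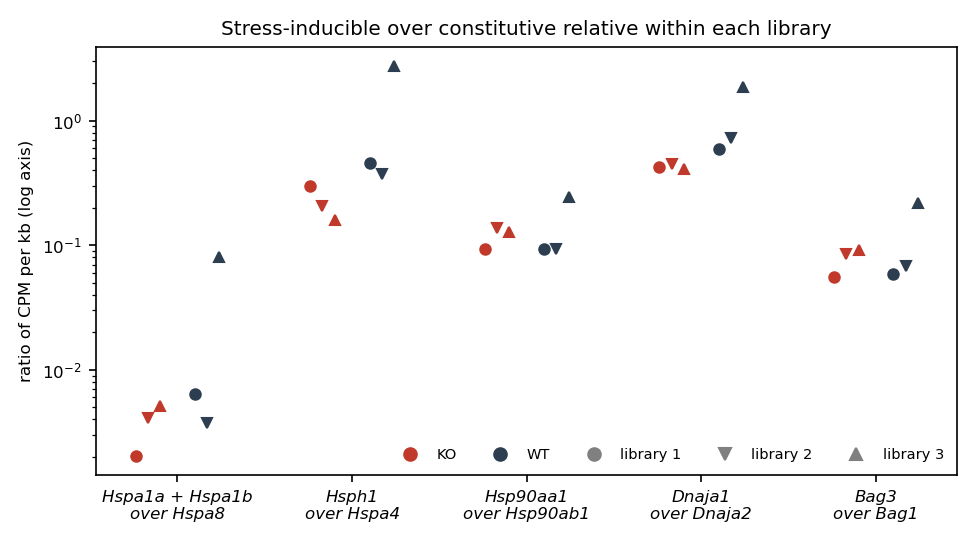
Ratio of CPM per kilobase (log axis) of a stress-inducible gene over a constitutive relative in each KO library (left) and WT library (right) for 5 pairs. WT 3 is the highest point of every pair, and the groups do not overlap for Hsph1 over Hspa4 and Dnaja1 over Dnaja2.

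The genes for the transcription factors of the response gave no difference beyond the spread between libraries. Hsf1, the main activator of heat shock genes, had 19.9, 18.3 and 21.3 CPM in the KO libraries, against 18.4, 16.8 and 24.2 CPM in the WT libraries. WT 3 was the highest library, but only 1.38 times the mean of the other WT libraries. Its log2 fold change was -0.0030 (SE 0.19), and 0.17 without WT 3. Hsf2, a related factor, had 12.96, 12.3 and 12.9 CPM in the KO libraries, against 17.8, 10.01 and 14.3 CPM in the WT libraries, and Hsbp1, which binds heat shock factors, had 122, 105 and 88.2 CPM in the KO libraries, against 121, 154 and 114 CPM in the WT libraries. Both overlapped between the groups, at log2 fold changes of -0.15 (SE 0.23) for Hsf2 and -0.30 (SE 0.19) for Hsbp1. RNA levels do not measure the activity of these factors.

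With all libraries, the 8 CCT subunits gave differences within a narrow range. All 8 had negative log2 fold changes, between -0.60 and -0.29, with a median of -0.49 beside -0.0019 over all genes. At an unadjusted p under 0.05, 7 were lower, against 5.49% of all genes, and 0 passed the edgeR test after adjustment or DESeq2. Without WT 3, 5 were lower at that limit, against 5.77% of all genes, and the log2 fold changes ran from -0.64 to -0.075. This count was also 5 without KO 1 and without KO 3. Every KO library lay below every WT library in 7 of 8, the exception being Cct3, against 9.39% of all genes. The same count held without WT 3, when the share over all genes was 15.6%. The KO mean was 0.659 to 0.818 times the WT mean. Summed levels were 686, 680.1 and 599 CPM in KO, against 851, 976 and 960.1 CPM in WT, so WT 3 lay between the other WT libraries in total.

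Cct7 (chr6:85451514-85468475) had 69.5, 64.2 and 59.5 CPM in the KO libraries, against 90.7, 98.8 and 104 CPM in the WT libraries, and Cct5 (chr15:31590800-31601804) had 99.96, 89.96 and 86.9 CPM in the KO libraries, against 135, 154 and 132 CPM in the WT libraries. Cct4 (chr11:22990519-23003780) had 99.8, 85.97 and 66.9 CPM in the KO libraries, against 129, 129 and 125 CPM in the WT libraries. None of these 3 overlapped between the groups. The highest KO value of Cct4 was 99.8 CPM and its lowest WT value 125 CPM. Log2 fold changes were -0.60 (SE 0.16) for Cct7, -0.60 (SE 0.16) for Cct5 and -0.60 (SE 0.18) for Cct4, with edgeR adjusted p of 0.310, 0.316 and 0.350. Without WT 3 they were -0.56, -0.64 and -0.61. Cct8 had 71.4, 78.3 and 76.2 CPM in the KO libraries, against 92.5, 111 and 106 CPM in the WT libraries, and Tcp1, the alpha subunit, had 140.2, 140.3 and 107 CPM in the KO libraries, against 158, 206 and 179.8 CPM in the WT libraries. Neither overlapped, with log2 fold changes of -0.45 (SE 0.16) for Cct8 and -0.49 (SE 0.19) for Tcp1 and, without WT 3, -0.43 and -0.50. Tcp1 shares 22.2% of its 50-base words with other genes, most with Acat3. Cct2 averaged 76.02 ± 3.06 CPM in KO and 103 ± 7.69 CPM in WT (SD, n = 3 each), and Cct6a 69.99 ± 6.84 CPM in KO and 98.4 ± 19.5 CPM in WT (SD, n = 3 each). Cct3 had 57.7, 67.3 and 65.6 CPM in the KO libraries, against 63.3, 70.6 and 99.1 CPM in the WT libraries, and its log2 fold change of -0.29 (SE 0.20) became -0.075 without WT 3. Its WT 1 value lay within the KO range.

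Each ring of CCT holds every subunit, and their RNA can be compared per length. Over the 6 libraries the subunits averaged 33.2 (Cct7) to 63.5 (Tcp1) CPM per kilobase. The highest subunit was 2.06, 2.18 and 1.92 times the lowest in the KO libraries and 2.27, 2.36 and 1.73 times in the WT libraries. The mean over subunits was 38.4, 38.03 and 33.8 CPM per kilobase in KO, against 47.7, 54.7 and 53.6 in WT. With both KO 3 and WT 2 left out, the median log2 fold change of the subunits was -0.43.

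**Figure D4:**
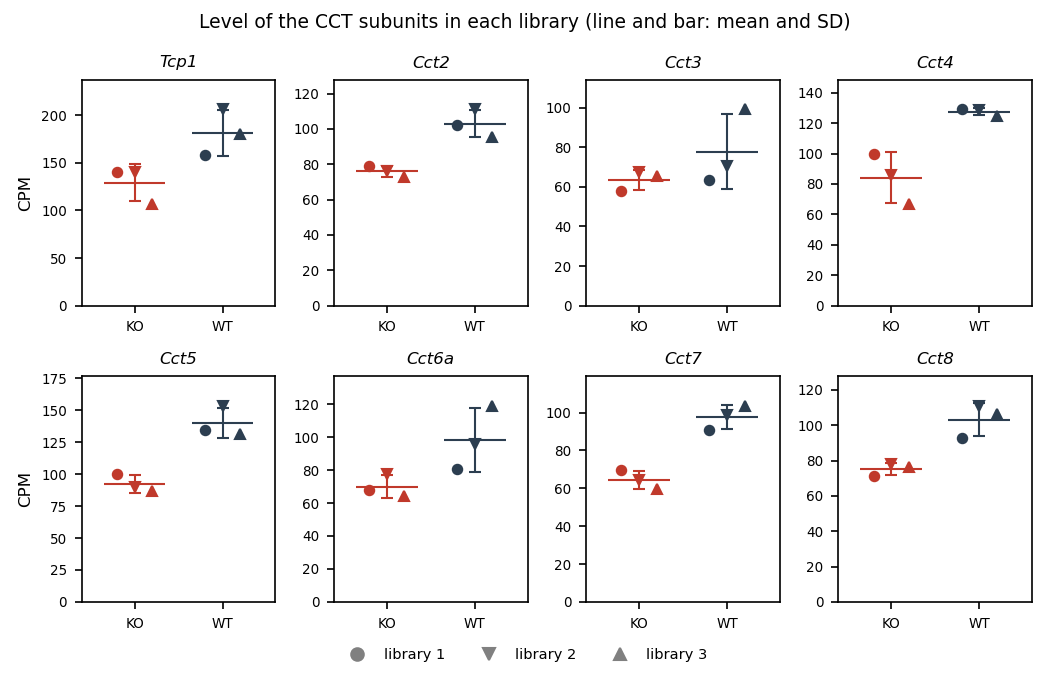
CPM of each CCT subunit (y axes from 0, 1 scale a panel) in the KO libraries (left) and WT libraries (right), with a line at the mean and a bar of 1 SD, n = 3 each. KO points lie below WT points for 7 of 8 subunits, and Cct3 overlaps.

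How far WT 3 stood from the other WT libraries was also set out by class, without use of the KO libraries and with no test. The ratio of WT 3 to the mean of WT 1 and WT 2 had a median of 2.68 over the stress-inducible members, 1.05 over the constitutive members, 1.03 over the factor genes and 1.01 over the CCT subunits, and 0.990 over all genes. It was at least 2 in 12 of 17 stress-inducible members and in 1 of 19 constitutive members, against 2.68% of all genes. The range over the stress-inducible members was 0.330 (Cryab) to 32.7 (Hspa1b), and over the CCT subunits 0.897 to 1.48. With a single library standing out, this describes that library and has no replicate.

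**Figure D5:**
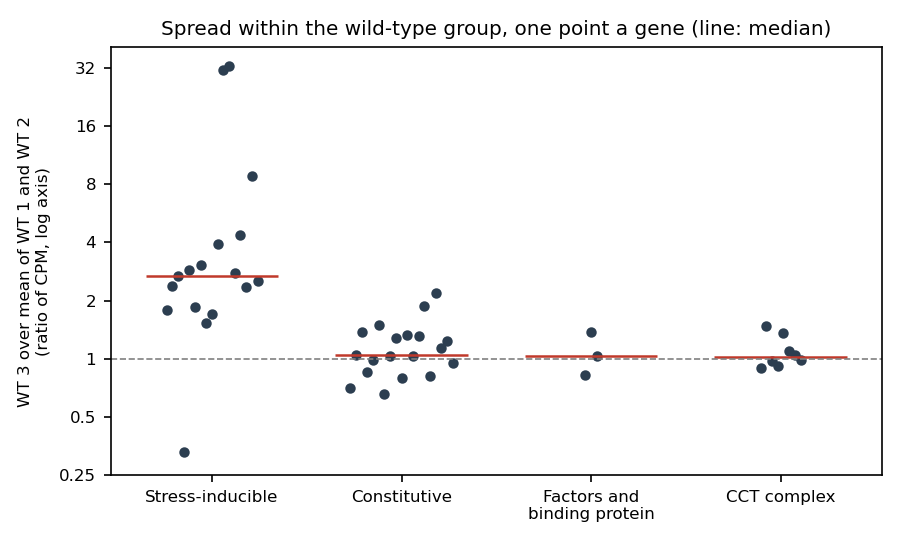
Ratio of CPM in WT 3 to the mean of WT 1 and WT 2 (log axis), 1 point a gene, with a line at the class median and a dashed line at 1. The stress-inducible members reach 32.7, and their lowest point, Cryab, is at 0.330.

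Outside the 47 genes, lists that bear on WT 3 gave the following values. Cirbp, a cold-inducible RNA-binding protein gene whose RNA is known to drop with heat, had 23.7, 16.2 and 25.9 CPM in the KO libraries, against 19.1, 13.6 and 7.92 CPM in the WT libraries, with its lowest value in WT 3. Rbm3, the related cold-inducible gene, had 51.9, 43.6 and 39.1 CPM in the KO libraries, against 48.3, 64.2 and 46.8 CPM in the WT libraries, and WT 3 was not the lowest there. Summed levels of 23 immediate early genes, whose transcription responds within minutes to stimulation of cells, were 278, 346 and 378 CPM in KO and 341, 387 and 367 CPM in WT, with WT 3 inside the range of the others. Of 18 skeletal muscle markers, 12 were tested and none was at 0 in every library. Their summed level was 102, 114 and 62.98 CPM in KO and 84.5, 76.9 and 135 CPM in WT, highest in WT 3 and next in KO 2. Most of that sum was Myl1, with 97.5, 60.9 and 56.8 CPM in the KO libraries, against 71.6, 56.9 and 75.5 CPM in the WT libraries. Ckm, muscle creatine kinase, had 0.0455, 3.13 and 0.0977 CPM in the KO libraries, against 0.525, 1.13 and 4.00 CPM in the WT libraries. KO 2, with nearly as much Acta1 as WT 3, had 1.12 CPM of Hspa1a and 2.02 CPM of Hspa1b, against 45.3 and 118 CPM in WT 3. The part of muscle RNA in the WT 3 values, and their relation to the low Cirbp, was not tested.

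Other cytosolic chaperones and cochaperones, 27 listed and 25 tested, had a median log2 fold change of -0.35, with 20 negative. That median was -0.53 without WT 1, -0.19 without WT 2 (18 negative, 3 lower at an unadjusted p under 0.05) and -0.067 without both KO 3 and WT 2 (15 negative, 2 lower). With all libraries, 7 were lower and 1 higher at an unadjusted p under 0.05, against 5.49% and 6.3% of all genes. Every KO library lay below every WT library in 6 of the 25 and above in 3, against 9.39% and 10.1% of all genes. After adjustment 0 passed the edgeR test, and DESeq2 called 1 lower, Ptges3, against 0.551% of all genes. Ptges3 encodes the HSP90 cochaperone p23 and had 57.9, 56.5 and 40.9 CPM in the KO libraries, against 73.6, 94.1 and 115 CPM in the WT libraries, with no overlap and a log2 fold change of -0.86 (SE 0.21). Its edgeR adjusted p was 0.309 and its DESeq2 adjusted p 0.0345, which became 0.202 without WT 3. Ppid, the HSP90-binding cyclophilin, had 29.7, 26.95 and 16.8 CPM in the KO libraries, against 29.98, 51.1 and 52.5 CPM in the WT libraries, also with no overlap, and Ahsa2, a relative of Ahsa1, was at -1.08 (SE 0.35) on the log2 scale, or -0.54 without WT 3. Bag6, which handles misplaced membrane proteins, ran the other way, with 126, 132 and 186 CPM in the KO libraries, against 98.01, 79.4 and 122 CPM in the WT libraries. It also had no overlap, with a log2 fold change of 0.57 (SE 0.22). Dnajc7, a J-domain protein that binds both HSP70 and HSP90, had 104, 87.1 and 78.96 CPM in the KO libraries, against 116, 161 and 109.7 CPM in the WT libraries.

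Other known targets of heat shock factor 1 outside the cytosolic chaperones were mixed. Of 11, 8 had a negative log2 fold change, with a median of -0.17, and 0 passed the edgeR test. At an unadjusted p under 0.05 there was 1 in each direction, against 5.49% of all genes lower and 6.3% higher. The median was -0.042 without WT 3 (7 negative) and -0.31 without WT 1 (10 negative). Cacybp, a ubiquitin ligase adaptor, had 39.5, 34.4 and 34.01 CPM in the KO libraries, against 56.4, 65.2 and 96.2 CPM in the WT libraries, with no overlap and a log2 fold change of -1.01 (SE 0.21). DESeq2 called it lower with an adjusted p of 0.00774, which became 0.0899 without WT 3, while its edgeR adjusted p was 0.288. The mitochondrial chaperonin genes Hspd1 and Hspe1 overlapped between the groups, at -0.17 (SE 0.19) and -0.31 (SE 0.23), or -0.032 and -0.22 without WT 3.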

How the data were processed

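RNA of interscapular brown adipose tissue was extracted with Isogen and sequenced from poly(A)-selected, stranded libraries, per the labels' protocols. The deposited table holds raw read counts per gene without normalization, in whole numbers, for 3 KO and 3 WT libraries. Per the submitters' processing notes, reads on build mm10 were handled with HISAT2 2.1.0, featureCounts 1.6.2 and DESeq2. Which annotation and strand option the counting used is not given in the sources used here, so reads of genes overlapping on opposite strands may be mixed. Identical columns numbered 0. Total counts per library were 18034204 to 33617762.

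The filterByExpr filter (at least 10 counts, 15 in total) left 15123 genes with 99.9% of counts. KO was compared with WT by edgeR 4.0.16 (quasi-likelihood test, TMM factors, genotype as the only term, R 4.3.3), with Benjamini-Hochberg adjustment over all genes and a threshold of 0.05. The labels list 4 KO samples, of which the 3 with a column in the count table were compared. Log2 fold changes are KO over WT at the default prior count of the edgeR fit. SE is the absolute log2 fold change divided by the square root of F. A prior count of 2 was used only for log CPM, from which principal components and correlations between libraries were taken. DESeq2 1.42.0 and limma 3.58.1 (voom) were alternatives. The test was tested on simulated data. Per-kilobase levels used the longest principal transcript of GENCODE M21, and shared 50-base words were counted between transcripts as a measure of reads that could be assigned to either gene. Promoters came from RefSeq.

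The members and lists were chosen with earlier results of these data known. Per-library values are given for 12 members listed by name, for up to 4 further members of each class with the smallest p and for the 2 of highest mean CPM, and for leading members of the other lists, of which 1 gene is not reported here. Chordc1, Hspb8, Hspbp1 and Cct3 fall outside that rule and were singled out after their values were seen.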

Additional observations from a re-analysis of the deposited data

How the results depend on the processing

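The count of genes called at an adjusted p under 0.05 was 9 over all genes and 0 over the members. It was 167 and 3 with DESeq2, 663 and 17 with no filter on low counts, 5 and 0 with a stricter filter (over 1 CPM), 27 and 0 without both WT 2 and KO 3, and 139 and 2 with DESeq2 without WT 3, the last chosen after seeing the data. Leaving out each library in turn gave 0 (without KO 2) to 17 (without WT 2) over all genes, with 1 without KO 1, and 0 to 0 over the members. The replicate block gave 5 calls over all genes and 0 members. Same-numbered libraries correlated at -0.11, 0.10 and 0.091, and 1 of 3 KO libraries correlated best with its own number, so the numbers were not taken as pairs. Leaving out each library moved the median log2 fold change between -1.29 and -0.38 for stress-inducible members (reported -0.98, lowest effect without WT 3), between -0.31 (without KO 2) and -0.092 for constitutive members (reported -0.18), and between -0.59 and -0.45 for CCT. With the replicate block these medians were -0.83, -0.21 and -0.48. Of 655 member values over 14 settings, 20 reversed sign, in 8 members, and 39 members kept their sign, 34 of them lower. Hspb8 ran over -0.49 to 0.59 with each library left out, -0.0033 with limma-voom and -0.79 without both WT 2 and KO 3. That last setting also reversed Hspa12b (-0.048), Dnaja2 (0.076) and Dnajb6 (0.058). Leaving out each library gave -0.73 to 0.24 for Hspb7, -0.34 to 0.057 for Hsf2, -0.47 to 2.03e-06 for Hspa13 and -0.11 to 0.17 for Hsf1. DESeq2 without WT 3 gave 0.24 for Hspb7 and 0.165 for Hsf1. Hsf1 was also 0.0022 with no filter, 0.0034 with the stricter filter and 0.014 with the replicate block. The cause of these changes was not tested. Depth limits the scarce members, Hspa1l, Hspb7, Hspa2 and, outside WT 3, Hspa1a.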

Other observations

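Prefoldin is the complex that delivers unfolded actin and tubulin to CCT. All 6 of its subunit genes had a negative log2 fold change of KO over WT, with a median of -0.49. The median was -0.63 without WT 3, -0.16 without WT 2, when 2 of 6 were positive, and -0.00093 without both KO 3 and WT 2, when 3 of 6 were positive. The summed level was 179, 140.0 and 121 CPM in the KO libraries, against 162, 323 and 150.2 CPM in the WT libraries. WT 2 was the highest library in 6 of 6 subunits, against 27.2% of all genes. The groups overlapped in all but Pfdn2, where KO lay below WT, as in 9.39% of all genes. Pfdn2 had 16.6, 17.4 and 17.2 CPM in the KO libraries, against 20.04, 50.2 and 22.04 CPM in the WT libraries. Pfdn5, the most abundant subunit, had 88.96, 60.9 and 46.4 CPM in the KO libraries, against 74.9, 148 and 64.4 CPM in the WT libraries. The CCT subunits, by contrast, had WT 2 as the highest library in 4 of 8 and did not overlap between the groups in 7 of 8. The prefoldin genes were set apart after their values were seen.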
